A study of Homo sapiens with 42 samples.

Results

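The MYC, MAX and MXD network is a set of 10 genes chosen by symbol: MYC and MYCN, their partner MAX, the MAX-binding repressors MXD1, MXD3, MXD4, MXI1 and MNT, and the relatives MLX and MGA. All 10 symbols were present among the 50648 gene symbols of the deposited counts. Counts came from RNA sequencing of 7 human cell lines of acute lymphoblastic leukaemia (ALL), given L-asparaginase (1 IU/ml, 4 h) or left untreated. L-asparaginase is an enzyme drug that removes asparagine, and less strongly glutamine, from the medium. The 5 lines of B-cell precursor origin were Nalm6, SUPB15, RS411, REH and 697, and the 2 of T-cell origin were CEM and DND41. Every line had 3 treated and 3 untreated libraries, all grown in RPMI medium with serum and added glutamine, so n = 3 per group throughout and 42 libraries in all. The labels number the replicates without saying that they came from separate cultures, so p-values measure only the spread between these libraries, which may be technical. Each line is a long-passaged culture from the cells of a single patient, so differences between lines are differences between these cultures.

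MYC and MYCN are transcription factors that drive growth, ribosome production and nutrient use, and they bind DNA only as pairs with MAX. The MXD proteins, MXI1 and MNT compete for MAX and recruit SIN3 and histone deacetylases to the same sites, so that they oppose MYC. MGA joins MAX in a Polycomb repressor complex, and MLX pairs with MXD1, MXD4, MNT and the nutrient sensor MondoA (MLXIP). MYC is a main oncogene of lymphoid leukaemia. A table of levels cannot say which of these proteins were paired on DNA.

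The network shares a short DNA word, the E-box CACGTG, which MAX pairs and MLX pairs both recognise. RefSeq promoter sequences on GRCh38.p14 were found for 9 of the 10 members, 14 promoters in all. None was found for MYC, so MYC was not searched. The 250 bases before each start were searched on both strands. The E-box stood in 3 of the 14 promoters, those of MXD4, MNT and MLX, and 6.3% of the 35116 promoters searched held it. A shorter word inside the E-box, ACGTG, is the core of the hypoxia response element. It stood in 6 of the 14 promoters, each of a different member, against 18.5% of all promoters. The 3 E-box promoters are among these 6 because the E-box contains the word. The remaining ones were 1 promoter each of MXI1, MAX and MGA. The C/EBP-ATF element, searched as TGATGNAA, stood in none of the 14 member promoters, against 3.1% of all. A match is a description of these letters and no evidence of binding. The promoters of the 3 E-box members and 1 of the 3 promoters of MXI1, the member with the largest mean change, are printed 5′ to 3′ with the searched words in capitals. MXD4 lies on the minus strand at chr4:2262110-2262359, MNT on the minus strand at chr17:2401061-2401310, MLX on the plus strand at chr17:42566850-42567099 and MXI1 on the plus strand at chr10:110209981-110210230.
MXD4: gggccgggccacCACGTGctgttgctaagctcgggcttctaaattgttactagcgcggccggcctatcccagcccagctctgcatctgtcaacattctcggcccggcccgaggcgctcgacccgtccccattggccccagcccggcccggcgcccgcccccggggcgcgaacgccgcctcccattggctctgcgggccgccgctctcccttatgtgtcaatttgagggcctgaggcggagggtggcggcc
MNT: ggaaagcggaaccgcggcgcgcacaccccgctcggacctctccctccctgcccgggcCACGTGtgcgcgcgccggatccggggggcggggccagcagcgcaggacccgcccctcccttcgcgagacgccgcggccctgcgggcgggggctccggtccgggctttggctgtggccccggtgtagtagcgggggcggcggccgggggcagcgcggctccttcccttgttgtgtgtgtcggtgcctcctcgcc
MLX: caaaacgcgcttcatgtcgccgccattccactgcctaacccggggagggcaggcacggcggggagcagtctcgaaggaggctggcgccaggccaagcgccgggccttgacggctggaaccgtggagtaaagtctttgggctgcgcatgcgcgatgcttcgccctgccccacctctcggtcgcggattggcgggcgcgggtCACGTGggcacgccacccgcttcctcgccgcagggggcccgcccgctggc
MXI1: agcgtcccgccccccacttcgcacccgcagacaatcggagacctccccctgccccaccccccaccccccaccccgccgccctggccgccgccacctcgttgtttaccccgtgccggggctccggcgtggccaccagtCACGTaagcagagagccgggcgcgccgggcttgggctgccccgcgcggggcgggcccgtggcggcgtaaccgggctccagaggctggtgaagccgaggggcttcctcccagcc
The E-box began 238 bases before the start of MXD4, 193 before that of MNT and 50 before that of MLX. The word in the MXI1 promoter began 113 bases before the start and reads CACGT on the printed strand, which is ACGTG on the other.

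Total counts per library were between 15.07 and 77.14 M (M, the usual mega prefix), with a median of 40.28 M. The lines carried the markers of their lineage, since group medians of the 9 B-lineage markers were 99 to 204 CPM (counts scaled to a library of 1 M) in the B-cell lines and those of the 8 T-lineage markers 173 to 221 CPM in the T-cell lines. The drug response was present, as ASNS (asparagine synthetase) and DDIT3 (the stress factor CHOP) had mean log2 fold changes of 1.07 ± 0.099 and 2.28 ± 0.078 (SE). In 5 lines (697, DND41, Nalm6, RS411 and SUPB15) untreated library 1 or A stood apart from its group, and 3 treated libraries (SUPB15 C, REH A and RS411 B) had been marked in earlier work on these data for transcripts of foreign cell types. Of 15 neural and neuroblastoma markers, the sum was 40.8 CPM in SUPB15 C, 27.8 CPM in REH A and 1.45 CPM in RS411 B, although untreated REH A also had 27.3 CPM and untreated RS411 libraries 1 to 1.65 CPM. Several responses to treatment that rest on these libraries are also given without them, while untreated levels, and sums and ratios of members, use all libraries. In CEM the treated libraries held 50.81 to 71.52 M counts, all deeper than the untreated ones with 22.68 to 31.6 M, and the part of depth in the CEM results was not tested. In bulk RNA, a lower level in every cell and a loss in some cells cannot be told apart.

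Across the network, MXI1 and MLX changed in more lines than MYC, and the MAX-binding repressors did not share a direction. A member was called changed in a line when its adjusted p was under 0.05 in the edgeR quasi-likelihood test of that line, adjusted by Benjamini-Hochberg over all genes tested. MXI1 fell in 6 of 7 lines and MLX rose in 5, whereas MYC changed in 1 line only. Of 65 member and line pairs that could be tested, 28 were called (43.1%), 13 higher and 15 lower. Over all genes and the 7 lines together, 21.7% of tests were called, 11.2% higher and 10.5% lower. MYCN was tested in REH and CEM only, because its counts were at or near 0 elsewhere.

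With all libraries, calls were most frequent in the 2 T-cell lines, but most of those in CEM depended on single libraries. In CEM 5 of 10 members rose and 4 fell, when 19% of all genes tested rose and 17.8% fell (36.8% called). In DND41 3 of 9 members rose and 4 fell, when 15.1% of all genes rose and 11.8% fell (26.9% called). In REH 2 of 10 members rose and 3 fell, when 13.1% of all genes rose and 13.2% fell (26.3% called). SUPB15 was nearer its background, with 2 of 9 members higher and 1 lower, when 12.9% of all genes were higher and 13.2% lower (26.2% called). RS411 had 1 of 9 members higher and 1 lower, when 7.49% of all genes were higher and 5.19% lower (12.7% called). Nalm6 had 1 of 9 members lower and none higher, below its background of 20.8% called, with 9% of all genes higher and 11.8% lower. In 697 likewise 1 of 9 members was lower, when 1.52% of all genes were higher and 0.83% lower (2.35% called). Over all genes 697 had 360 calls among 15306 tested, which became 3645 without untreated library 1 and 9 to 57 without any other library of the line. The backgrounds of other lines moved too. RS411 had 2072 calls, against 4527 without untreated A and 273 to 1137 without any other library. SUPB15 had 3955, against 6325 without untreated A and 1714 to 2526 without treated B or C or untreated C. DND41 had 4016, against 1842 to 2546 without treated B or C or untreated C, Nalm6 had 3107, against 1671 to 1975 without treated A, B or C, and REH had 4095, against 2405 to 2471 without treated B or C or untreated B. Over all genes, leaving out untreated A gave 3730 calls in Nalm6 and 5311 in DND41, more than with all libraries. CEM had 5916, against 4321 to 4462 without treated B or C or untreated B. Without treated CEM C, the calls of MYC, MAX, MXD4, MXI1, MNT and MGA in CEM were lost. The member and line pairs called over the 7 lines were then 22. Without the 5 untreated libraries that stood apart, 35 of the member and line pairs were called, and 23 were without the 3 marked treated libraries. With these sets of libraries left out, the share of all genes called over the 7 lines was not computed.

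**Figure D1:**
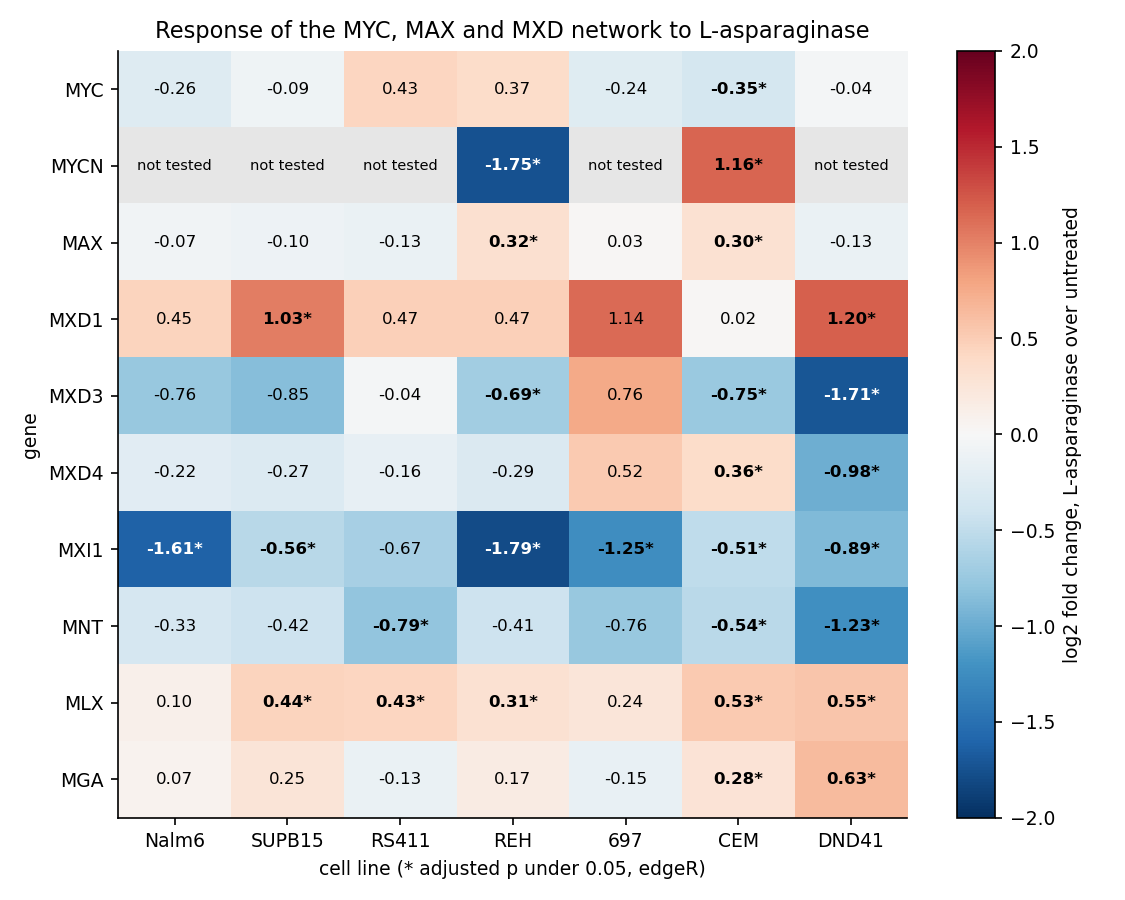
Log2 fold change of the 10 genes (rows) in the 7 lines (columns), L-asparaginase over untreated, from the edgeR model of each line with 3 libraries per group. Red is higher and blue lower after treatment, and an asterisk and bold type mark an adjusted p under 0.05: the MXI1 row is blue in all 7 lines, the MLX row red in all 7, and the MYC row pale.

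A joint model of all 42 libraries tested the mean response of the 7 lines. In it 6 of the 10 members were called, 3 of them higher (MXD1, MLX and MGA) and 3 lower (MXI1, MNT and MXD3), when 37.4% of all genes were called, 17.8% higher and 19.6% lower. MXI1 had the largest change, 2.08-fold lower (log2 fold change -1.05 ± 0.11 SE, adjusted p = 5.8e-10). The median of all 20983 genes was -0.02 on the same scale. These 6 calls held when any 1 library was left out. The mean changes of MYC (-0.04 ± 0.066, adjusted p = 0.78) and MAX (0.02 ± 0.052, adjusted p = 0.96) missed the threshold. The mean of MYCN has no meaning, since 5 lines hold almost no counts.

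The response differed between lines for 5 of 10 members in the interaction test of the same model, MYCN, MXD1, MXD3, MXI1 and MGA, when 19.4% of all genes were called. This count is less firm than that of the mean response. It was 8 without the 5 untreated libraries that stood apart and 3 without the 3 marked treated libraries. The share of all genes called in the interaction test was not computed with those libraries left out. Each line was also set against the mean of the other 6. With all libraries such a difference was called for 2 members, MXD3 in 697 and in DND41 and MGA in DND41. Without the 5 untreated libraries these calls held and others were added: MXD1 in 697 (1.29, adjusted p = 3.1e-05), CEM (-0.83, 0.00069) and Nalm6 (-0.55, 0.037), MXD4 in DND41 (-1.14, 5.9e-05), CEM (0.82, 0.0046) and 697 (0.64, 0.031), MYC in RS411 (0.69, 0.031), MLX in 697 (-0.38, 0.034) and MNT in DND41 (-0.78, 0.046). With all libraries such a difference was called for 2.49% of all genes in Nalm6, 2.96% in SUPB15, 0.987% in RS411, 2.24% in REH, 9.08% in 697, 1.18% in CEM and 5.9% in DND41. No such shares were computed without the 5 untreated libraries, so the added calls have no background beside them.

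MYC, the main activator of the network, was called in CEM only. In CEM, MYC had 122, 124 and 98.1 CPM in treated libraries A, B and C, against 145, 148 and 148 CPM in untreated ones. The groups did not overlap, and MYC fell 1.28-fold (log2 fold change -0.35 ± 0.095, adjusted p = 0.012). This fall rested on treated library C, without which it was -0.25 (adjusted p = 0.067). In RS411 the direction was the opposite, with 373, 356 and 340 CPM in treated libraries and 303, 203 and 292 CPM in untreated ones. There too the groups did not overlap, yet the change of 0.43 ± 0.17 missed the threshold (adjusted p = 0.14), and without untreated library A it was 0.56 (adjusted p = 0.022). In REH, MYC had 196, 201 and 244 CPM after treatment and 124, 152 and 237 CPM without it, so that the groups overlapped. The change in REH was 0.37 ± 0.19 (adjusted p = 0.18). Its untreated library C was far above the other 2, and without it the change was 0.66 (adjusted p = 0.0061). With the letters A to C as pairs it was 0.40 (adjusted p = 0.0079). In Nalm6, SUPB15, 697 and DND41 log2 fold changes lay between -0.26 and -0.04, none of them called. The interaction test of MYC gave an adjusted p of 0.077. It passed without the 5 untreated libraries (0.0078), without untreated REH C (0.0065) or untreated 697 1 (0.019), with the replicate block (0.015), with DESeq2 (0.015) and with a minimum of 50 counts (0.044).

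MYCN, the relative of MYC best known from neuroblastoma, moved in opposite directions in the 2 lines that expressed it. In CEM, MYCN had 21, 34.2 and 30.5 CPM in treated libraries A, B and C, against 8.9, 15.3 and 14.5 CPM in untreated ones. MYCN rose 2.23-fold in CEM (log2 fold change 1.16 ± 0.20, adjusted p = 0.00081), and the groups did not overlap. In REH it had 1.71, 0.718 and 0.588 CPM after treatment and 2.42, 3.98 and 3.09 CPM without it. Here MYCN fell 3.37-fold (-1.75 ± 0.38, adjusted p = 0.0074), again without overlap. The treated value of REH library A, one of the 3 marked libraries, was the highest of its group, and without it the change was -2.24 (adjusted p = 0.0016). REH libraries held 22 to 40 MYCN counts after treatment and 71 to 145 without it, so single values there carry a large counting error. CEM libraries held 1148 to 2510 MYCN counts after treatment and 226 to 499 without it.

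The difference between the CEM and REH responses of MYCN was tested in a fit of these 12 libraries, chosen after the values had been seen. It was 3.03 ± 0.43 on the log2 scale (adjusted p = 0.00053), when 8.28% of all genes differed between the 2 responses. Leaving out each of the 12 libraries gave 2.77 to 3.39, with adjusted p at or below 0.0041. For MYC the same difference was -0.69 ± 0.24 (adjusted p = 0.094), and -1.0 without untreated REH library C (adjusted p = 0.0026). In the joint interaction test MYCN had an adjusted p of 0.0065.

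Elsewhere MYCN was nearly absent. It had 0 counts in all 6 libraries of Nalm6, 697 and DND41. With 3 counts taken as the limit, the shallowest library of each allowed 0.122 CPM, 0.0986 CPM and 0.0896 CPM of its unscaled total. SUPB15 held 1 MYCN count in 6 libraries and RS411 held 3. Treated SUPB15 library C, where the neural and neuroblastoma markers summed to 40.8 CPM against 0.583 to 1.17 CPM in the other libraries of the line, had no MYCN count. In CEM those markers summed to 1.84 to 2.21 CPM after treatment and 0.764 to 1.1 CPM without it, with 9 and 10 of the 15 at 0, and the 2 that could be tested both rose. In REH they summed to 15.7 to 27.8 CPM after treatment and 10.9 to 27.3 CPM without it, with 10 and 11 of the 15 at 0. The part of such markers in the MYCN results of CEM and REH was not tested. MYCNOS, the antisense gene that overlaps 3.8% of the exon bases of MYCN, had 0.413 ± 0.0394 CPM in treated CEM and 0.455 ± 0.133 CPM in untreated CEM (SD), and whether the counts used the strand is not given in the sources used here.

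Because levels of different genes compare only per length, MYC and MYCN were also set on the RPKM scale (CPM per kilobase of exon). Treated CEM cells had 38.1 ± 4.72 RPKM of MYC and 11 ± 2.62 of MYCN, and untreated ones 49.1 ± 0.558 and 4.95 ± 1.33 (SD). The sum of both in CEM was 49.1 ± 5 RPKM in treated and 54 ± 1.88 RPKM in untreated cells. In REH, MYCN was a trace beside MYC, with 0.387 ± 0.237 RPKM after treatment and 1.22 ± 0.301 RPKM without it, when MYC had 71.2 ± 8.8 and 57 ± 19.5 RPKM.

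**Figure D2:**
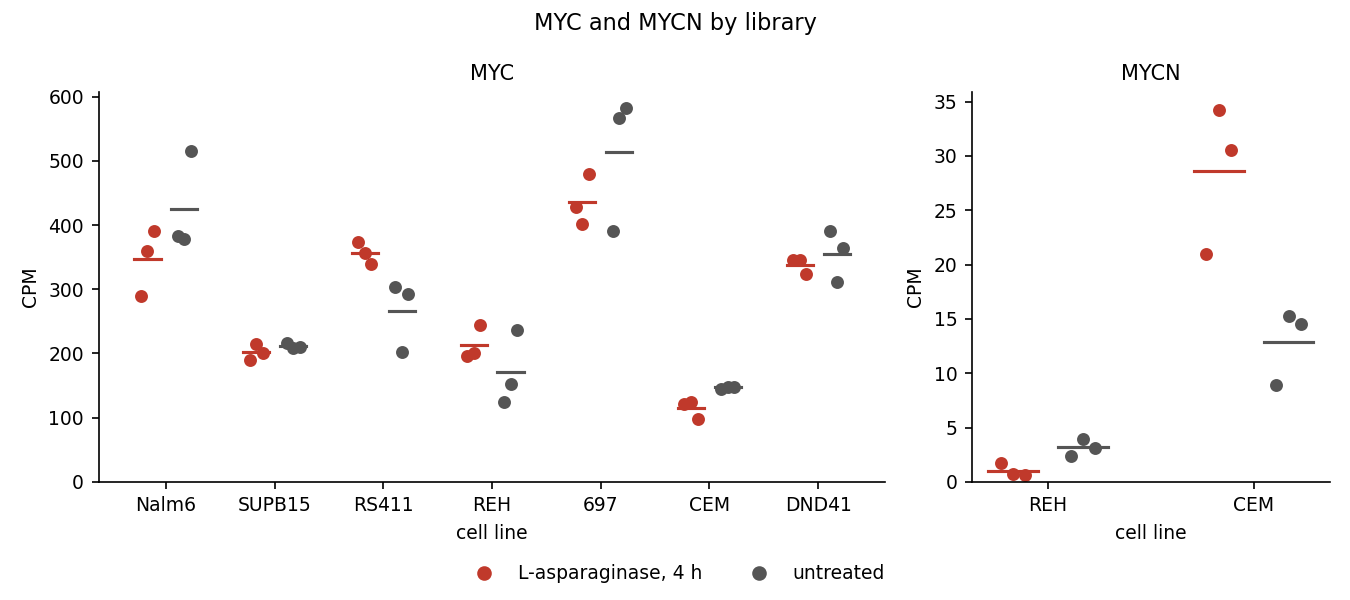
CPM of MYC in the 7 lines and of MYCN in REH and CEM, with a point per library, a bar for the mean of 3, treated libraries in red left of untreated ones in grey, and axes that start at 0. MYCN is higher after treatment in CEM, at 21 to 34.2 CPM against 8.9 to 15.3, and lower in REH, at 0.588 to 1.71 CPM against 2.42 to 3.98.

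MAX, the partner that MYC, MXD and MGA proteins share, had a mean change close to 0. It rose in REH, with 68.7, 65.1 and 74.8 CPM after treatment and 51.6, 55.6 and 64.9 CPM without it (log2 fold change 0.32 ± 0.10, adjusted p = 0.045). It also rose in CEM, with 79, 87.9 and 86.6 CPM after treatment and 63.8, 70.4 and 73.9 CPM without it (0.30 ± 0.081, adjusted p = 0.013). The groups did not overlap in either line, but neither call was robust. The REH call was lost without any of the libraries treated A, B or C or untreated A or B (adjusted p 0.071 to 0.17). The CEM call was lost without treated B or C or untreated B (adjusted p 0.052 to 0.061). In the other 5 lines log2 fold changes were between -0.13 and 0.03. The mean response of MAX without the 5 untreated libraries was 0.12 (adjusted p = 0.011).

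MXI1, a MAX-binding repressor also named MXD2, fell furthest and in the most lines. In Nalm6, MXI1 had 9.37, 9.07 and 14.9 CPM in treated libraries A, B and C, against 25.9, 32.8 and 46.1 CPM in untreated ones. It fell 3.06-fold there (log2 fold change -1.61 ± 0.23, adjusted p = 0.0013). In REH it had 3.89, 6.14 and 7.3 CPM after treatment and 11.5, 16.2 and 35.5 CPM without it. The fall in REH was 3.47-fold (-1.79 ± 0.36, adjusted p = 0.0046), with untreated library C far above the other 2. In 697 it had 11.1, 11.6 and 11.8 CPM after treatment and 29.5, 25.9 and 25.6 CPM without it. The fall in 697 was 2.38-fold (-1.25 ± 0.19, adjusted p = 0.025), and treated and untreated libraries lay far apart.

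In DND41, MXI1 had 12, 14.4 and 14.2 CPM after treatment and 17, 29.2 and 30.8 CPM without it, a 1.85-fold fall (-0.89 ± 0.21, adjusted p = 0.013). In SUPB15 it had 5.13, 5.6 and 6.53 CPM after treatment and 9.03, 7.02 and 8.99 CPM without it (-0.56 ± 0.18, adjusted p = 0.047). In CEM it had 11.1, 15.6 and 15 CPM after treatment and 15.4, 19.6 and 24.7 CPM without it (-0.51 ± 0.16, adjusted p = 0.029). Of the 6 called lines, only CEM had overlapping groups. In RS411 MXI1 had 5.64, 7.19 and 8.6 CPM after treatment and 13, 10.7 and 10.5 CPM without it. The RS411 groups did not overlap, and the change of -0.67 ± 0.20 missed the threshold (adjusted p = 0.059).

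The weaker MXI1 calls depended on single libraries. The call of SUPB15 was lost without treated A, B or C or untreated A or C (adjusted p 0.058 to 0.19) and with the letters as pairs (0.056). That of 697 was lost without any library but untreated 1 (0.066 to 0.2), and with the libraries paired by number (-1.24, 0.11), and its log2 fold change lay between -1.31 and -1.22 in the 5 fits without a library. The CEM call was lost without treated A or C or untreated B or C (0.057 to 0.11), where the change was -0.56 to -0.32. In DND41 it was lost without untreated B or C (0.054 and 0.056). The interaction test of MXI1 (adjusted p = 0.043) was lost on leaving out 25 of the 42 libraries, 1 at a time, with adjusted p up to 0.092, and was 0.16 without the 3 marked treated libraries.

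MNT, the MAX-binding repressor present in most cell types, was lower after treatment in all 7 lines and called in 3. In DND41, MNT had 5.22, 3.84 and 3.89 CPM in treated libraries A, B and C, against 9.7, 13.1 and 8.22 CPM in untreated ones. It fell 2.35-fold there (log2 fold change -1.23 ± 0.23, adjusted p = 0.0047). In RS411 it had 8.53, 6.37 and 5.35 CPM after treatment and 12.5, 10.9 and 12 CPM without it (-0.79 ± 0.21, adjusted p = 0.04). In CEM it had 5.77, 5.24 and 5.95 CPM after treatment and 10.7, 7.77 and 6.37 CPM without it (-0.54 ± 0.18, adjusted p = 0.032). Treated and untreated MNT levels did not overlap in 6 lines, REH being the exception. The RS411 call was lost without treated B or C or untreated B or C (adjusted p 0.068 to 0.18), and the CEM call without any library but untreated C (0.066 to 0.12). In CEM the change was only -0.31 without untreated A. In 697 the change of -0.76 ± 0.29 missed the threshold (0.2), and without untreated library 1 it was -0.90 (0.01). The mean response of MNT was 1.57-fold lower (-0.65 ± 0.086, adjusted p = 1e-07), and its interaction test missed the threshold (0.26). The AC006435.1 gene on the other strand overlaps 12.2% of the exon bases of MNT.

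MXD1, a repressor that rises when blood cells stop dividing and mature, went the other way from MXI1 and MNT. In DND41, MXD1 had 39.9, 38.6 and 40.1 CPM in treated libraries A, B and C, against 14.8, 16.5 and 21.6 CPM in untreated ones. It rose 2.29-fold there (log2 fold change 1.2 ± 0.15, adjusted p = 0.0011). In SUPB15 it had 8.69, 8.92 and 7.84 CPM after treatment and 4.14, 4.22 and 3.93 CPM without it. The rise in SUPB15 was 2.05-fold (1.03 ± 0.16, adjusted p = 0.0024). In 697 it had 4.75, 3.94 and 4.8 CPM after treatment and 3.47, 1.3 and 1.24 CPM without it. The groups of 697 did not overlap, but untreated library 1 stood apart, and the change of 1.14 ± 0.45 missed the threshold (adjusted p = 0.22). Without that library it was 1.84 (adjusted p = 0.00016).

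In CEM, MXD1 showed almost no difference, with 13.5, 16.2 and 14.7 CPM after treatment and 14.7, 15.4 and 13.9 CPM without it (log2 fold change 0.02 ± 0.10, adjusted p = 0.89). In Nalm6, RS411 and REH the changes were 0.45 to 0.47, without overlap between groups and without a call. RS411 passed the threshold without untreated A (0.47, adjusted p = 0.037) and REH without untreated A (0.65, 0.035) or with the letters as pairs (0.51, 0.037). The mean response was 1.6-fold higher (0.68 ± 0.085, adjusted p = 3.8e-08). The interaction of MXD1 (adjusted p = 0.021) was lost without treated CEM library A (0.059).

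MLX, which pairs with MXD1, MXD4, MNT and MondoA but not with MYC or MAX, rose modestly in most lines. In CEM, MLX had 67, 68.3 and 66.5 CPM in treated libraries A, B and C, against 47.7, 46.6 and 46.7 CPM in untreated ones. It rose 1.44-fold there (log2 fold change 0.53 ± 0.073, adjusted p = 0.00021). In DND41 it had 80.4, 81 and 77.8 CPM after treatment and 55.1, 61.9 and 49.3 CPM without it, a 1.47-fold rise (0.55 ± 0.12, adjusted p = 0.0097). The calls in SUPB15 (0.44 ± 0.13, adjusted p = 0.032), RS411 (0.43 ± 0.11, 0.035) and REH (0.31 ± 0.097, 0.036) were smaller, and in all 5 lines the groups did not overlap. SUPB15 lost its call without treated B or C or untreated B or C (adjusted p 0.057 to 0.14). RS411 lost it without any library but untreated A (0.059 to 0.18), and REH without any but treated A (0.052 to 0.14). In Nalm6 and 697 the changes were 0.10 ± 0.12 and 0.24 ± 0.28, with overlapping groups. Without untreated library 1 the change in 697 was -0.02 (adjusted p = 0.93). The mean response of MLX was 1.28-fold higher (0.36 ± 0.059, adjusted p = 5.3e-06), and the interaction test missed the threshold (0.52) with all libraries but gave 0.0083 without the 5 untreated libraries and 0.015 without untreated 697 library 1. PSMC3IP on the other strand overlaps 18.1% of the exon bases of MLX.

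**Figure D3:**
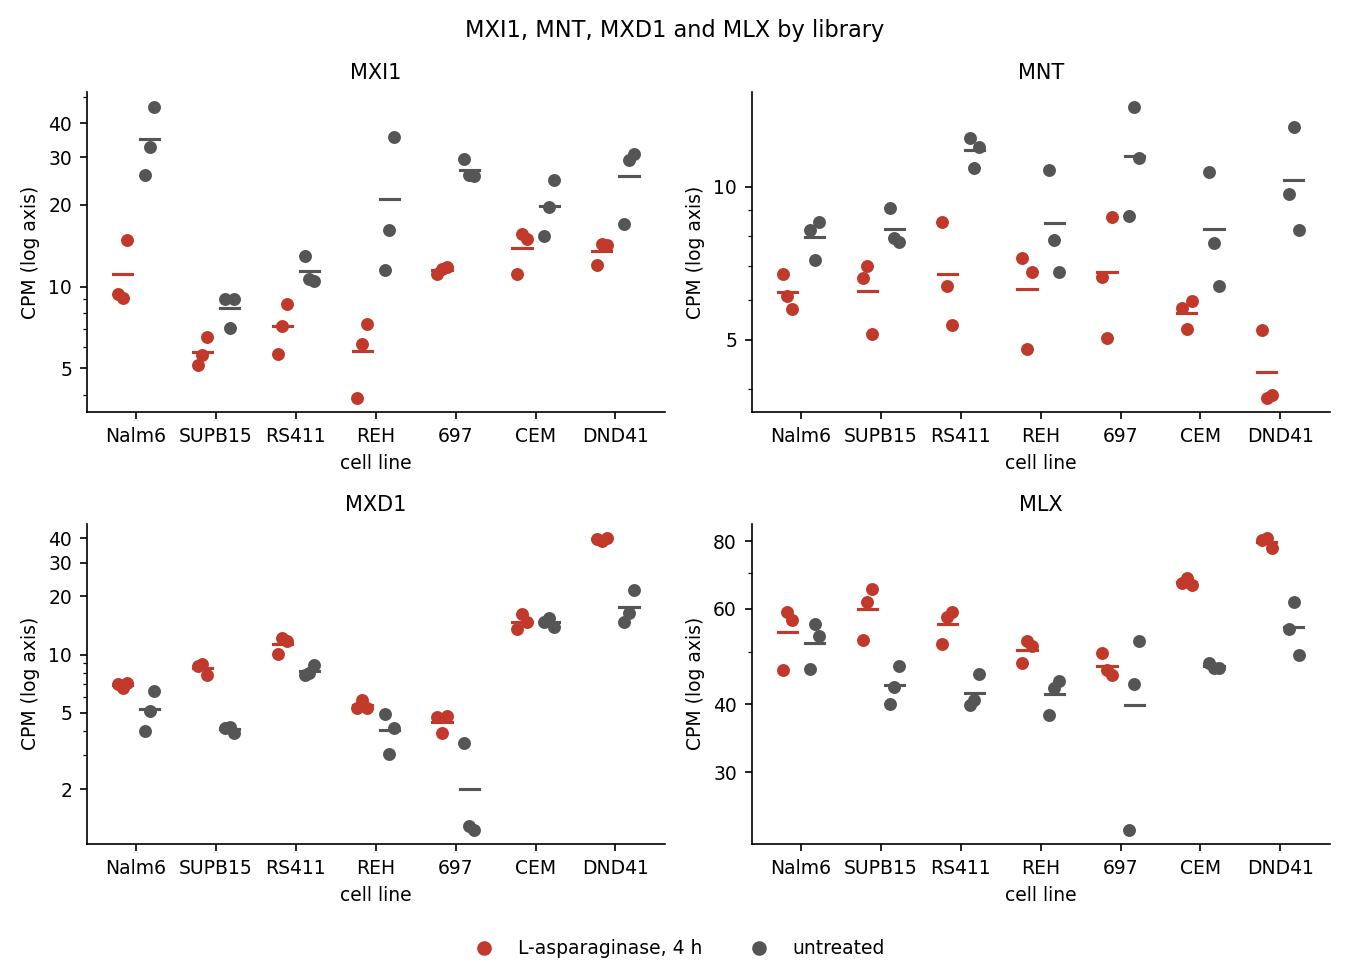
CPM on log axes of MXI1, MNT, MXD1 and MLX in the 7 lines, with a point per library, a bar for the mean of 3, and treated libraries in red left of untreated ones in grey. MXI1 and MNT have lower treated means in every line, and MXD1 and MLX have higher ones; the gap is widest for MXI1 in REH and Nalm6 and narrowest for MXD1 in CEM.

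MXD3, the MXD family member tied to dividing cells, fell in 3 lines and responded differently in 697 and DND41. In DND41, MXD3 had 6.02, 4.99 and 4.19 CPM in treated libraries A, B and C, against 7.98, 22.6 and 20.5 CPM in untreated ones. It fell 3.27-fold there (log2 fold change -1.71 ± 0.34, adjusted p = 0.0058). In REH it had 29, 23.8 and 24.9 CPM after treatment and 40.4, 47.9 and 39.9 CPM without it (-0.69 ± 0.13, adjusted p = 0.0034). In CEM it had 10.8, 12 and 11.7 CPM after treatment and 16, 21.7 and 20.7 CPM without it (-0.75 ± 0.12, adjusted p = 5e-04). None of these 3 lines had overlapping groups, and no call was lost when a library was left out. In 697 the sign was the opposite, with 21.1, 18.3 and 20.3 CPM after treatment and 3.83, 18.5 and 13.1 CPM without it (0.76 ± 0.48, adjusted p = 0.42). Without untreated library 1 the change in 697 was 0.35 (adjusted p = 0.15).

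The response of MXD3 in 697 was 1.57 ± 0.40 log2 units above the mean of the other lines (adjusted p = 0.0099), and that in DND41 was 1.34 units below it (-1.34 ± 0.41, adjusted p = 0.04). Without the first untreated library of 697 the 697 difference was 1.17 (adjusted p = 0.049). Without the 5 untreated libraries that stood apart these differences were 1.35 (adjusted p = 0.00021) in 697 and -1.52 (2.6e-05) in DND41. Without the 3 marked treated libraries that of DND41 was -1.35 (0.056). The mean response was 1.51-fold lower (-0.60 ± 0.14, adjusted p = 0.00065). Exons of PRELID1 on the other strand and RAB24 on the same strand overlap 40.4% of the exon bases of MXD3, so part of its counts may belong to these genes.

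MXD4, one of the repressors with an E-box in the promoter, changed in opposite directions in the 2 T-cell lines. In CEM, MXD4 had 27.6, 29.3 and 29.4 CPM in treated libraries A, B and C, against 21.5, 25.7 and 20.4 CPM in untreated ones. It rose 1.28-fold there (log2 fold change 0.36 ± 0.099, adjusted p = 0.013), a call lost without treated B or C (0.06 and 0.057). In DND41 it had 17.5, 24.5 and 23.7 CPM after treatment and 24.7, 51.9 and 56.2 CPM without it. It fell 1.98-fold there (-0.98 ± 0.27, adjusted p = 0.023), a call lost without any library but untreated A (0.052 to 0.092). The interaction test of MXD4 gave an adjusted p of 0.097. It passed without the 5 untreated libraries (4.2e-05), without untreated DND41 A (0.024) or untreated 697 2 (0.036), with the replicate block (0.036), with DESeq2 (0.037) and without the filter on low counts (0.0094). Its mean response was -0.17 ± 0.11 (adjusted p = 0.29), and -0.33 (7.3e-05) without those libraries.

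MXD3 and MXD4 were low in the untreated libraries that stood apart. The first untreated library held MXD3 at 0.51 of the mean of the other 2 in Nalm6, 0.427 in SUPB15, 0.649 in RS411, 0.242 in 697 and 0.37 in DND41. For MXD4 these ratios were 0.523, 0.505, 0.693, 0.372 and 0.457 in the same order of lines. In REH and CEM the ratios of MXD3 were 0.92 and 0.755 and those of MXD4 1.07 and 0.933. MXD1 in 697 went the other way, at 2.73 of the mean of the other 2. MXD3 fell in Nalm6 without untreated Nalm6 A (log2 fold change -1.0, adjusted p = 0.016) and in SUPB15 without untreated SUPB15 A (-1.11, 0.00065). With all libraries these changes were -0.76 (0.096) and -0.85 (0.062). MXD4 likewise fell in SUPB15 without untreated SUPB15 A (-0.48, adjusted p = 0.0049), against -0.27 (0.43) with all libraries. A short list of small noncoding RNAs, RN7SK among them, made up 3.354% to 7.231% of counts in those untreated libraries. The other untreated libraries held 7.832% to 13.475%, all above that range, and the treated ones 5.773% to 17.824%. The part of library makeup in these levels was not tested.

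**Figure D4:**
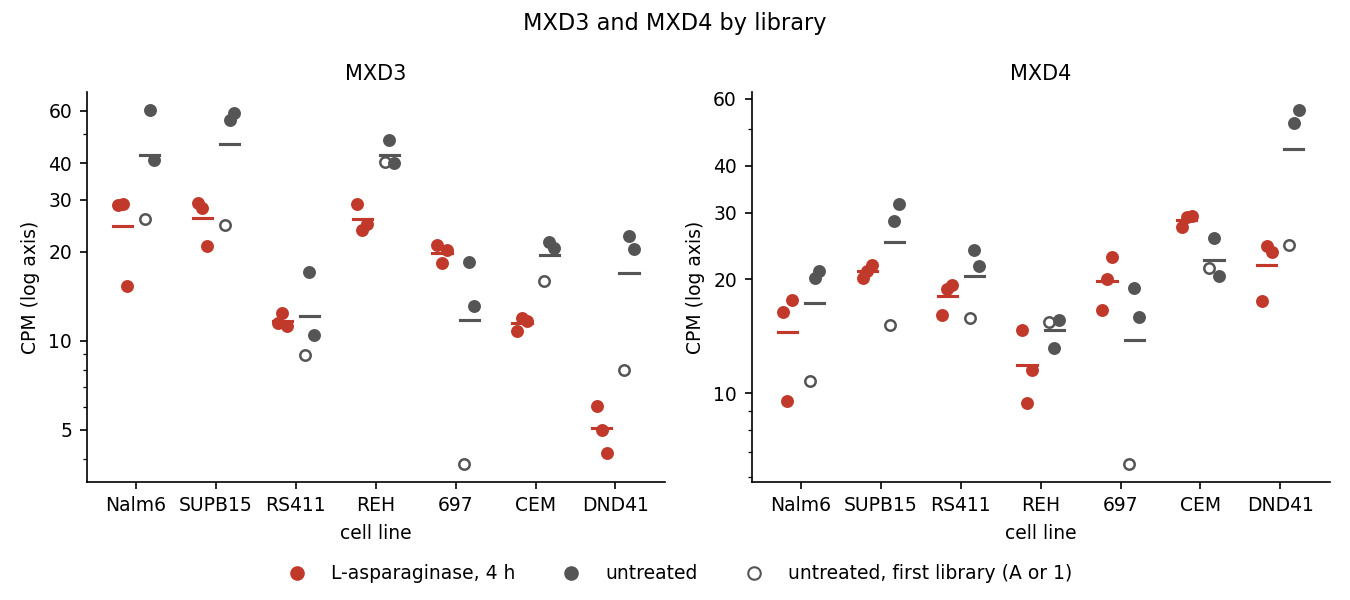
CPM on log axes of MXD3 and MXD4 in the 7 lines, with a point per library, a bar for the mean of 3, treated libraries in red left of untreated ones in grey, and the first untreated library (A or 1) as an open circle. In Nalm6, SUPB15, RS411, 697 and DND41 the open circle lies below both other untreated points, and in 697 it is the lowest of all.

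MGA, the scaffold that brings MAX into the Polycomb complex PRC1.6, rose in the T-cell lines. In DND41, MGA had 146, 162 and 153 CPM in treated libraries A, B and C, against 111, 102 and 90.7 CPM in untreated ones. It rose 1.55-fold there (log2 fold change 0.63 ± 0.12, adjusted p = 0.0058). In CEM it had 212, 225 and 221 CPM after treatment and 189, 177 and 178 CPM without it, a 1.22-fold rise (0.28 ± 0.079, adjusted p = 0.015). The CEM call was lost without treated B or C or untreated B (adjusted p 0.059 to 0.078). The DND41 response was 0.53 ± 0.14 log2 units above the mean of the other lines (adjusted p = 0.02), and 0.48 (0.0039) without the 5 untreated libraries. In SUPB15 the change was 0.25 (adjusted p = 0.29), and 0.48 (0.0053) without untreated A. Changes in the other lines lay between -0.15 and 0.17. The lowest, in 697, was 0.07 without untreated library 1 (adjusted p = 0.75). The mean response was 1.11-fold higher (0.15 ± 0.05, adjusted p = 0.016). The interaction of MGA (adjusted p = 0.029) was lost without any of 7 libraries (0.05 to 0.094): untreated RS411 A, treated 697 1 and 2, treated DND41 B and C, and untreated DND41 B and C. It was 0.065 without the 3 marked treated libraries and 0.16 without the filter on low counts.

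Untreated cells differed widely in the network. In the test over the 7 untreated groups 9 of 10 members were called, MNT being the exception (adjusted p = 0.058), when 86.7% of all genes were called. Lines were then compared in 21 pairs, in which 46.4% of all tests over genes were called (35.2% to 55.8% by pair). Per length, MYC was the most abundant member in every line, from 49.1 RPKM in CEM to 171 RPKM in 697. Line means were 10.6 to 20.1 RPKM for MAX, 9.35 to 13 for MLX and 4.34 to 10.3 for MGA. The repressors had line means of 1.81 to 7.58 RPKM for MXI1, 2.29 to 9.03 for MXD3, 1.95 to 6.28 for MXD4, 0.316 to 2.78 for MXD1 and 0.914 to 1.35 for MNT, so that those of MXI1, MXD3 and MXD4 overlapped with that of MGA. In SUPB15, for example, MXD3 averaged 9.03 RPKM and MGA 7.82.

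In untreated cells MYC was 514 ± 106 CPM (SD) in 697, 426 ± 76.9 in Nalm6, 355 ± 39.9 in DND41, 266 ± 54.6 in RS411, 212 ± 4.48 in SUPB15, 171 ± 58.4 in REH and 147 ± 1.68 in CEM. Among neighbours in this order only DND41 and RS411 differed (adjusted p = 0.045), and 16 of the 21 pairs of lines did. MYCN ran almost the other way at its top, with 12.9 ± 3.46 CPM in CEM and 3.16 ± 0.784 in REH, the 2 lines with the lowest MYC. CEM and REH differed in MYCN (adjusted p = 2.3e-05), and REH stood above RS411 (7.3e-10). MAX spanned a narrow range, with 89 ± 15.1 CPM in DND41, 73.2 ± 19 in 697, 72.9 ± 8.06 in RS411, 71.7 ± 6.06 in Nalm6, 69.3 ± 5.13 in CEM, 57.4 ± 6.8 in REH and 46.8 ± 5.35 in SUPB15. None of its neighbours differed, and 9 of its 21 pairs did.

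MXD1 was highest in the T-cell lines, with 17.6 ± 3.54 CPM in DND41 and 14.6 ± 0.735 in CEM. It was 8.24 ± 0.545 CPM in RS411, 5.19 ± 1.22 in Nalm6, 4.09 ± 0.148 in SUPB15, 4.06 ± 0.941 in REH and 2 ± 1.27 in 697. CEM stood above RS411 (adjusted p = 0.0018), RS411 above Nalm6 (0.015) and REH above 697 (0.00048), and 17 of 21 pairs differed. MXI1 was 34.9 ± 10.3 CPM in Nalm6, 27 ± 2.13 in 697, 25.6 ± 7.55 in DND41, 21.1 ± 12.7 in REH, 19.9 ± 4.68 in CEM, 11.4 ± 1.41 in RS411 and 8.35 ± 1.15 in SUPB15. Its only neighbours that differed were CEM and RS411 (adjusted p = 0.017), with 12 of 21 pairs called.

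MXD3 fell into a high and a low range, with 46.6 ± 19.1 CPM in SUPB15, 42.7 ± 4.49 in REH and 42.5 ± 17.4 in Nalm6. It was 19.5 ± 3.04 CPM in CEM, 17.1 ± 7.93 in DND41, 12.2 ± 4.34 in RS411 and 11.8 ± 7.43 in 697. Nalm6 and CEM were its only neighbours that differed (adjusted p = 0.011), and 12 of 21 pairs did. MXD4 was 44.3 ± 17.1 CPM in DND41, above SUPB15 with 25.1 ± 8.7 CPM (adjusted p = 0.023). It was 22.5 ± 2.83 CPM in CEM, 20.5 ± 4.16 in RS411, 17.3 ± 5.69 in Nalm6, 14.7 ± 1.32 in REH and 13.8 ± 6.52 in 697, and 9 of 21 pairs differed. The lowest place of 697 in MXD3 and MXD4 rests on its untreated library 1, with 3.83 and 6.5 CPM. Its other untreated libraries held 13.1 and 18.5 CPM of MXD3 and 15.9 and 19 CPM of MXD4.

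MGA was 181 ± 6.61 CPM in CEM, 160 ± 6.83 in REH, 145 ± 22 in RS411, 138 ± 27.6 in SUPB15, 132 ± 11.7 in Nalm6, 101 ± 9.98 in DND41 and 76.6 ± 18.3 in 697. Nalm6 stood above DND41 (adjusted p = 0.016) and DND41 above 697 (0.011), and 14 of 21 pairs differed. MLX and MNT were nearly level across lines. MLX ranged from 39.8 ± 14.8 CPM in 697 to 55.4 ± 6.32 in DND41, with REH (41.8 ± 3.13), RS411 (42 ± 3.01), SUPB15 (43.4 ± 3.5), CEM (47 ± 0.58) and Nalm6 (52 ± 5.03) between them. The low place of 697 rests on its untreated library 1, with 23.5 CPM against 43.6 and 52.4 CPM in its other untreated libraries. No neighbours of MLX differed, and 4 of 21 pairs did. MNT ranged from 7.98 ± 0.699 CPM in Nalm6 to 11.8 ± 0.84 in RS411, with SUPB15 (8.27 ± 0.709), CEM (8.29 ± 2.24), REH (8.51 ± 2.09), DND41 (10.4 ± 2.53) and 697 (11.5 ± 2.81) between them, and 1 of 21 pairs differed.

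The makeup of the repressor transcripts was described per length by summing MXD1, MXI1, MXD3, MXD4 and MNT, with no test. The mean sum was lower after treatment in every line. In Nalm6 it was 11 ± 0.714 RPKM after treatment and 20 ± 5.43 without it (SD), with 10.5 to 11.8 RPKM in treated and 13.7 to 23.4 in untreated libraries. In REH it was 9.54 ± 0.744 RPKM after treatment and 16.6 ± 2.33 without it, with 8.75 to 10.2 RPKM in treated and 14.5 to 19.1 in untreated libraries. The groups did not overlap in these lines. In 697 it was 10.7 ± 0.761 RPKM after treatment and 11.7 ± 2.08 without it, and untreated library 1, with 9.61 RPKM, lay below all treated ones. SUPB15 had 11.3 ± 0.812 RPKM after treatment and 16 ± 4.74 without it. Its untreated library A, with 10.6 RPKM, lay inside the treated range of 10.4 to 11.8. RS411 had 8.95 ± 0.557 and 10.4 ± 1.05 RPKM, again without overlap, and CEM 12.3 ± 0.962 and 14.5 ± 1.32. In DND41 the sum was 13.7 ± 0.536 RPKM after treatment and 19.1 ± 6.02 without it, and the first untreated library, with 12.2 RPKM, lay below all treated ones. MXD1 made up 45.3% of the treated and 14.5% of the untreated sum in DND41, and MXD3 7.16% and 17.3%. MXI1 made up 23.4% of the treated and 49.9% of the untreated sum in 697, and 21.9% and 37.9% in Nalm6. The share of MXD3 in the untreated sum was 41.2% in Nalm6, 56.5% in SUPB15 and 50.1% in REH. Part of the MXD3 counts may belong to PRELID1 and RAB24, which overlap its exons. The ratio of MYC and MYCN to these repressors was 7.53 ± 1.01 in treated and 3.45 ± 0.66 in untreated REH. It was 13.3 ± 1.44 and 8.71 ± 2.51 in RS411, and 10.6 ± 2.19 and 7.39 ± 1.94 in Nalm6. The Nalm6 groups overlapped, with 9.29 in untreated A and 8.14 in treated A, and those of REH and RS411 did not. In 697 the ratio was 13.6 ± 0.321 in treated and 14.6 ± 1.59 in untreated cells, and in CEM 4.01 ± 0.445 and 3.73 ± 0.219, with overlapping groups in both lines. SUPB15 had 5.94 ± 0.513 and 4.76 ± 1.79, and DND41 8.22 ± 0.547 and 6.88 ± 3.3. The ratio in untreated library A was 6.82 in SUPB15, against 3.84 and 3.61 in B and C. In DND41 it was 10.7, against 4.68 and 5.29 in B and C. Both values of library A lay above all treated ones of their line, so that the groups overlapped.

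**Figure D5:**
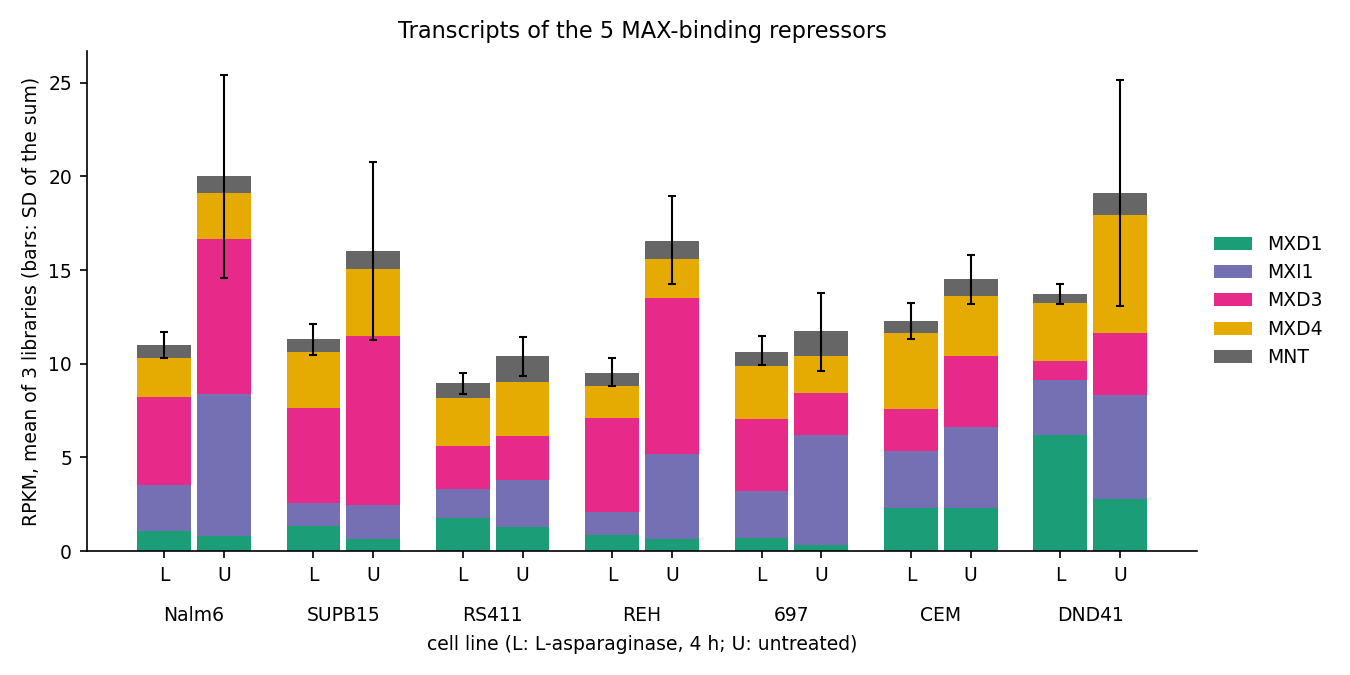
Stacked mean RPKM of MXD1, MXI1, MXD3, MXD4 and MNT in each line, treated (L) left of untreated (U), from 3 libraries per group, with error bars for the SD of the summed level; the axis starts at 0. The treated stack is the lower in each line, the MXI1 part is smaller in every treated stack, and the MXD1 part is larger in treated DND41.

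Among relatives outside the 10 genes, MYCL, a further MYC gene, fell in 3 lines. In Nalm6 it was 1.38 ± 0.411 CPM after treatment and 2.7 ± 0.635 CPM without it (log2 fold change -0.95 ± 0.28, adjusted p = 0.035). In REH it was 0.362 ± 0.0584 and 0.922 ± 0.0802 CPM (-1.32 ± 0.34, adjusted p = 0.016), and in CEM 0.204 ± 0.0692 and 0.533 ± 0.163 CPM (-1.39 ± 0.38, adjusted p = 0.014). MLXIP (MondoA), the glucose-sensing partner of MLX, fell in DND41, with 7.81 ± 1.26 CPM after treatment and 12 ± 1.66 without it (-0.59 ± 0.19, adjusted p = 0.043). In 697 it was 44.5 ± 9.33 CPM after treatment and 28.5 ± 8.22 without it (0.64 ± 0.27, adjusted p = 0.24). MLXIPL (ChREBP), the liver relative of MondoA, averaged at most 0.0398 CPM in any group.

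Genes that work with the network were counted from lists in the joint model, where 17.8% of all genes rose and 19.6% fell. Of 15 corepressors of MXD proteins and MNT, 3 rose and 9 fell, with a median log2 fold change of -0.25 against -0.016 over all genes. SIN3A, the scaffold that MXD proteins bind, fell 1.33-fold (-0.41 ± 0.096, adjusted p = 0.00068), whereas its paralogue SIN3B rose 1.17-fold (0.23 ± 0.055, 0.00079). The histone deacetylase HDAC2 fell 1.3-fold (-0.38 ± 0.068, 2.4e-05). ING2, a SIN3-complex reader of histone methylation, fell 1.64-fold (-0.72 ± 0.10, 5.6e-07), and ING1 (0.21 ± 0.043, 0.00011) and ARID4A (0.28 ± 0.10, 0.028), also SIN3-complex subunits, rose.

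Of 14 genes of the PRC1.6 complex of MGA and MAX, 4 rose and 6 fell (median -0.04). TFDP2, the dimer partner of E2F proteins, fell 1.72-fold (-0.79 ± 0.056, adjusted p = 8.9e-14) and E2F6, a repressive E2F, fell 1.35-fold (-0.43 ± 0.056, 7.9e-08), both lower in 7 of 7 lines. HDAC2 is on this list too. L3MBTL2, which binds histones, rose 1.45-fold (0.54 ± 0.057, 1e-09), higher in 7 of 7 lines. PCGF6, the defining subunit of the complex (0.20 ± 0.058, 0.0068), and YAF2 (0.20 ± 0.054, 0.0031) rose slightly.

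Of 30 cofactors and regulators of MYC stability, 5 rose and 7 fell (median -0.01). AURKA, a kinase that protects MYCN from degradation, rose 1.51-fold (0.59 ± 0.052, adjusted p = 1.2e-11), and CCNT1, the cyclin of the elongation factor P-TEFb, rose 1.38-fold (0.46 ± 0.042, 3.1e-11). PIM2, a kinase that stabilises MYC, fell 1.57-fold (-0.65 ± 0.081, 3.8e-08), and USP28, a deubiquitinase of MYC, fell 1.52-fold (-0.60 ± 0.066, 2.3e-09). GSK3B, a kinase that marks MYC for degradation, fell 1.25-fold (-0.32 ± 0.052, 3.3e-06). Of the named genes that protect MYC proteins, AURKA rose, and PIM2 and USP28 fell.

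The listed targets of MYC showed no single direction. Of 54 targets 11 rose and 15 fell, with a median of -0.06. SHMT2, a mitochondrial enzyme of serine and glycine metabolism, rose 1.76-fold (0.81 ± 0.086, adjusted p = 1e-09). RRP12 (0.54 ± 0.086, 3.3e-06) and BOP1 (0.49 ± 0.095, 6.3e-05), which serve ribosome assembly, also rose. LDHA, lactate dehydrogenase, fell 1.87-fold (-0.91 ± 0.11, 2e-08), the iron receptor TFRC fell 1.63-fold (-0.71 ± 0.073, 6.5e-10) and the purine enzyme PAICS fell 1.63-fold (-0.70 ± 0.059, 4.6e-12), all 3 lower in 7 of 7 lines. By line, RS411 had 1 target higher and 12 lower, with a median of -0.26, and SUPB15 10 higher and 6 lower, with a median of 0.03. In CEM, where MYC fell and MYCN rose, 11 targets rose and 11 fell (median -0.05).

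Of 17 genes that MYC is known to lower, 8 rose and 2 fell, with a median of 0.23. CDKN1B, a cyclin-dependent kinase inhibitor, rose 1.64-fold (0.71 ± 0.05, adjusted p = 6.2e-14), KLF6, a zinc finger factor, 1.67-fold (0.74 ± 0.089, 1.7e-08), and TXNIP, an inhibitor of thioredoxin and of glucose uptake, 1.67-fold (0.74 ± 0.16, 0.00025). GADD45B, a growth arrest gene, fell 1.68-fold (-0.75 ± 0.10, 1.8e-07) and NDRG1, a differentiation gene, fell 1.37-fold (-0.46 ± 0.10, 0.00034). By line, 14 to 16 of these genes could be tested. Nalm6 had 3 of them higher and 6 lower, REH 2 and 4, and SUPB15 5 and 1. RS411 and 697 had 3 higher and 0 lower each, CEM 3 and 2, and DND41 4 and 1.

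All 6 listed targets of MondoA and MLX were called, 3 higher and 3 lower. ARRDC3, an arrestin-domain protein, rose 3.27-fold (1.71 ± 0.11, adjusted p = 1e-14), higher in 7 of 7 lines, and its relative ARRDC4 rose 1.26-fold (0.33 ± 0.11, 0.014), as did TXNIP, which both lists hold. The hexokinase HK2 fell 1.63-fold (-0.71 ± 0.078, 2.4e-09), the glycolytic regulator PFKFB3 fell 1.48-fold (-0.57 ± 0.084, 9.3e-07) and KLF10 fell 1.5-fold (-0.58 ± 0.14, 0.0011). By line, SUPB15 had 3 of the 6 higher and none lower, and Nalm6 1 higher and 3 lower.

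Finally, the genes whose mean log2 CPM followed MYC or MXI1 most closely over the 14 groups were ranked among 12189 genes. These correlations are descriptions, since the groups share cell lines, libraries and depth. MYC was followed most closely by PRELID1 (Pearson r = 0.907), a mitochondrial lipid transfer protein whose exons overlap MXD3, then PLEKHA1 (0.895), GUCY1A3 (0.889), NOB1 (0.887), which acts in ribosome maturation, and DNAJC12 (0.886). MXI1 was followed by MSMO1 (0.91) and SC5D (0.877), enzymes of cholesterol synthesis, MRPL17 (0.904), a mitochondrial ribosomal protein, P4HA1 (0.889), a collagen prolyl hydroxylase, and RP11-660L16.2 (0.875).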

How the data were processed

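Each deposited table holds raw read counts per gene for 1 cell line, which the authors made with the genome build hg19, per the submitters' processing notes. Which aligner, counter, annotation and strand setting were used is not given in the sources used here. Gene symbols were joined over the 7 tables (50648 symbols); 26 to 28 date-like names per table, and 2 repeated names in 697 and CEM, were left out.

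Counts were tested with edgeR 4.0.16 in R 4.3.3 (TMM scaling, trended dispersion, quasi-likelihood test, at least 10 counts by its expression filter), in 1 model per line and 1 joint model of 42 libraries for the mean response, its interaction with line and the untreated levels. P-values were adjusted by Benjamini-Hochberg over all genes tested, with a threshold of 0.05. The same code was tested on simulated data. CPM use the joint scaling factors; RPKM use GENCODE exon lengths on GRCh38, not the annotation of the files, so they rest on an assumed gene model. Library letters come from column names. Same-lettered libraries deviated together in SUPB15, REH, CEM and DND41 (lowest correlation 0.13), more closely than libraries of different letters. In RS411 the lowest was 0.18, below the highest of 0.26 between different letters. The lowest was 0.05 in Nalm6 and -0.06 in 697. Alternatives were RLE scaling, other filters (none, or 50 counts), a replicate block, DESeq2 1.42.0 and leaving out libraries.

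Named were all 10 members, their relatives, ASNS and DDIT3, the 3 largest called rises and falls of each list, and the 5 genes most like MYC and MXI1. The result of 1 gene under this rule is not reported here. Members and lists were chosen with earlier results of these data known.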

Additional observations from a re-analysis of the deposited data

Results flagged for a closer look

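The treatment response differed between the 7 lines for 5 members, by the interaction term of the joint edgeR model. MYCN (adjusted p = 0.0065) rose 2.23-fold in CEM and fell 3.37-fold in REH. MXD3 (adjusted p = 0.019) fell 3.27-fold in DND41 and had a log2 fold change of 0.76 in 697, or 0.35 without untreated library 1 of 697. MXD1 (adjusted p = 0.021) rose 2.29-fold in DND41 and had a log2 fold change of 0.02 in CEM. MGA (adjusted p = 0.029) rose 1.55-fold in DND41 and had a log2 fold change of -0.15 in 697, or 0.07 without untreated library 1 of 697. MXI1 (adjusted p = 0.043) was lower in all 7 lines, with log2 fold changes from -1.79 in REH to -0.51 in CEM. In all 5 cases the test is of any difference among the lines, and does not by itself name the lines that differ.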

How the results depend on the processing

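No called change in a member turned its direction under the alternatives run, but some changes that were not called did, among them MAX in Nalm6, SUPB15, 697 and DND41, MLX and MGA in 697, MXD1 in CEM and MYC in DND41. The 28 calls in single lines became 27 with RLE scaling (27 shared), 27 without the filter (24), 29 with a minimum of 50 counts (28) and 32 with DESeq2 (28). With the replicate block, which pairs libraries of the same letter, there were 28 (26 shared). Leaving out 1 library gave 22 to 30. The count of 6 members in the mean response was 6 under every alternative but 1, which left out the 5 untreated libraries and gave 8 by adding MAX and MXD4. The interaction count of 5 was the least stable. It was 8 without those 5 libraries, 3 without the 3 marked treated libraries, 7 with the replicate block or DESeq2, and 3 to 8 when 1 library was left out. The cause was not tested, and the share of all genes called in the joint model was not computed under the alternatives. The count of 9 members that differed between untreated lines was 8 to 10 when 1 library was left out. Counts of MYCN, at most 145 per library outside CEM, limit the precision of its values there.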
